A study of Mus musculus with 2 samples.

Results

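C/D box snoRNAs are small nucleolar RNAs that carry a box C motif near the 5′ end and a box D motif near the 3′ end. They bind fibrillarin and its partner proteins and guide the 2′-O-methylation of rRNA and snRNA, and a few of them, such as Snord118 (U8), Snord14 (U14), Snord13 (U13) and Snord22 (U22), take part in the cleavage of pre-rRNA. In vertebrates most are excised from the introns of host genes, many of which encode ribosomal proteins, and small RNA libraries hold short fragments of them. The fragments were defined here as sequence tags of J1 mouse embryonic stem (ES) cells that matched, in sense and without mismatch, a GENCODE snoRNA transcript whose symbol starts with Snord, and that matched no miRNA hairpin. The annotation held 98 such genes with 97 different symbols, among 1507 snoRNA entries of any symbol and 6112 small non-coding RNA entries. They matched 1840 of the 1766298 distinct tags.

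The cells were cultured with LIF and kept for 24 h with 1 mM AICAR, an activator of AMP-activated protein kinase, or with the same volume of its solvent, DMSO (0 mM AICAR). The study asked how AICAR alters small RNA expression, and 1 library of size-selected small RNA was sequenced from each condition. The DMSO library held 18870345 clean reads and the AICAR library 21091226. With 1 library in each condition, differences have no replicate check and no test between conditions was made. RNA of 18 to 30 nt was selected before sequencing, and the snoRNAs are 64 to 238 nt long, so the levels are those of fragments and not of whole snoRNAs. In these bulk samples fewer cells with a fragment and less of it per cell cannot be told apart. Levels are reads per 1000000 clean reads (RPM), a fold is the AICAR level divided by the DMSO level, and intervals are 95% exact intervals for folds and 95% Wilson intervals for shares. These intervals hold counting error alone and treat reads as independent. PCR copies are not independent, so the intervals can be too narrow even for counting error. The limit of 3 reads was equal to 0.159 RPM in DMSO and 0.142 RPM in AICAR. Of 12 miRNA hairpins that mark mouse ES cells, 11 had reads in each library. Their summed levels were 31409 and 54555 RPM, mostly from the Mir290 to Mir295 hairpins. All 4 Mir302 hairpins were lower in AICAR, clearly for Mir302a (10.4 and 2.37 RPM) and little for Mir302d (2.91 and 2.56 RPM). Mir302c had 3 and 0 reads. Of 12 hairpins that mark other cell types, Mir223 had no reads, and the summed levels of the list with copies counted once were 550 RPM and 769 RPM. Of these, the Mir124a copies had 257 RPM and 409.7 RPM and Mir122 had 2.91 and 25.4 RPM. Mir1a-1 (157.2 and 202.5 RPM), Mir145a (136 and 380 reads) and the Mir133a copies (6 and 9 reads) were higher in AICAR too. Per clean read, Mir142 (16.1 and 14.8 RPM) and Mir143 (109 and 98.5 RPM) were a little lower in AICAR. The part of these differences in the snoRNA results was not tested.

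The full sequences of 8 snoRNAs on which the results turn are shown from the GENCODE transcripts, as DNA letters 5′ to 3′, with the most-read tag over both libraries in capitals. They show where along each snoRNA the fragments lay.
Snord14d: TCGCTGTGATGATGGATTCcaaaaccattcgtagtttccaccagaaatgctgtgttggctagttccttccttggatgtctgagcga
Snord82: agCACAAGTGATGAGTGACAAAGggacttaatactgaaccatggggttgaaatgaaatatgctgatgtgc
Snord69: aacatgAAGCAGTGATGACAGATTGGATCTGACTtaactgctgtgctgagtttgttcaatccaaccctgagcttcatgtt
Snord118: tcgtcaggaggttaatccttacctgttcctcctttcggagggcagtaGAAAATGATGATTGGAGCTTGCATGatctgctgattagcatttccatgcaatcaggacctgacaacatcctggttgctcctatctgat
Snord49a: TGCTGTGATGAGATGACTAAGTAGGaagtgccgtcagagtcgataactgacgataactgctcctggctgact
Snord2: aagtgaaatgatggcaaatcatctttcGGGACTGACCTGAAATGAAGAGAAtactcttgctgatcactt
Snord22: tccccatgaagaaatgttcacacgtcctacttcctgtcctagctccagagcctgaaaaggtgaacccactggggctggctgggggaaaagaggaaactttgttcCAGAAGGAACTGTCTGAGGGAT
Snord17: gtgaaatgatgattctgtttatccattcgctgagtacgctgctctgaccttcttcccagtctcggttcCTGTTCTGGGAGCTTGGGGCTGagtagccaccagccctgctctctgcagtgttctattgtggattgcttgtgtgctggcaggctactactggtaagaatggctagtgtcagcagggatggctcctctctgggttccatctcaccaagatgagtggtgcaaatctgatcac
In the GRCm38 build, Snord14d lies at chr9:40803995-40804080 on the plus strand in an intron of Hspa8, a heat shock cognate chaperone gene. Snord82 lies at chr1:86356261-86356330 on the minus strand in an intron of the nucleolin gene Ncl. Snord69 lies at chr14:31014287-31014366 on the minus strand in an intron of Gnl3, the nucleostemin gene. Snord118 lies at chr11:69073427-69073561 on the plus strand, with no annotated gene around it on that strand. Snord49a lies at chr11:62603450-62603521 on the plus strand in an intron of the non-coding gene 2410006H16Rik. Snord2 lies at chr16:23108953-23109021 on the plus strand in an intron of Eif4a2, a translation initiation factor gene. Snord22 lies at chr19:8725866-8725991 on the plus strand in an intron of Snhg1, a host gene without a known protein product. Snord17 lies at chr2:144265979-144266216 on the minus strand in an intron of the sorting nexin gene Snx5. Of the 98 genes, 94 lay within an intron of a gene on the same strand, 3 had no gene around them on the strand (Snord118, Snord13 and Snord104), and 1 Snord116 copy reached an exon boundary of its host.

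C/D box fragments made up 17217 reads of the DMSO library (912 RPM, or 0.0912% of clean reads, interval 0.0899% to 0.0926%). They made up 20356 reads of the AICAR library (965 RPM, or 0.0965%, 0.0952% to 0.0978%). The total was 1.06-fold in AICAR (1.04 to 1.08). All 98 genes had a read in at least 1 library, with 97 in DMSO and 97 in AICAR. Snord111 had 1 read in AICAR alone, and Snord61 had 1 read in the DMSO library alone. The libraries shared 730 of these tags, with 95.9% of the C/D box reads of each. Fragments of the H/ACA box class, whose members guide pseudouridylation, came from 42 Snora genes with 148 and 161 RPM, 1.09-fold in AICAR (1.03 to 1.14). The direction of the C/D box total depended on the denominator: relative to miRNA hairpin reads it was 0.778-fold, and after median-ratio or TMM scaling it was 1.18-fold or 1.21-fold. On the log2 scale these denominators moved every fold by −0.44, 0.16 and 0.19. Median-ratio scaling used every small non-coding RNA feature with a read in both libraries, without a filter on level. Features with very few reads thus counted in full, and the scaling gave both libraries the same depth.

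A few snoRNAs supplied most of the fragments. Snord14c had 241 RPM in DMSO and 230 RPM in AICAR, and Snord14d had 240.5 and 229 RPM. Snord14c and Snord14d differ by G47A and A49G (Snord14c base, position from the 5′ end, Snord14d base), outside the part that held most reads, and nearly all of their reads matched both, so their levels cannot be told apart. Together the Snord14 copies held 27.9% of the C/D box reads in DMSO and 25.4% in AICAR. Without the Snord14 copies the total was 1.09-fold (1.07 to 1.12). Per 100 nt of snoRNA, Snord82 followed in the DMSO library with 103 RPM and had 94.4 RPM in AICAR. Snord69 had 86.6 and 94.3 RPM per 100 nt, and Snord2 had 87.6 and 50.1. Snord49a had 62.0 RPM per 100 nt in the DMSO library, below Snord82, Snord69 and Snord2, and 113 in AICAR, above all 3. The Snord14 copies thus led in both libraries, and the order changed among the genes behind them. Of all 98 genes, 19 reached 10 RPM in at least 1 library, and 7 had fewer than 10 reads in both libraries together.

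**Figure D1:**
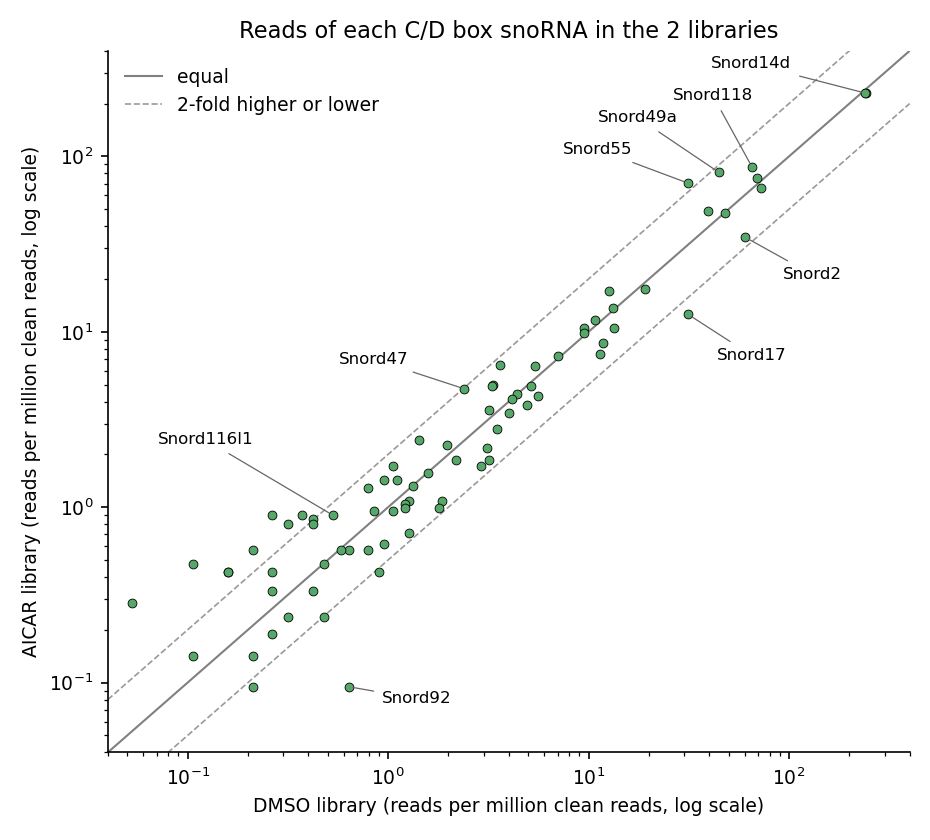
Level of each C/D box snoRNA in the DMSO library (x axis) and the AICAR library (y axis), in RPM on log scales, with copies that share all tags drawn once. Each point is 1 snoRNA with reads in both libraries, and beyond 1 RPM only Snord55 and Snord17 lie outside the dashed 2-fold lines.

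Copies with the same tags were counted as 1, which left 83 members, and 53 of them reached 1 RPM in at least 1 library. Snord14c and Snord14d, which share nearly all reads but not every tag, stayed separate members in this and later counts. Of these 53, 1 was at least 2-fold higher in AICAR (Snord55) and 1 was at most 0.5-fold (Snord17). Among all 1349 small non-coding RNAs at 1 RPM, 6.89% were at least 2-fold higher and 10.1% were at most 0.5-fold. The member shares were 1.89% in each direction. The calls depended on the denominator. Per miRNA hairpin read 0 members were higher and 8 (15.1%) lower, against 2.15% and 35.2% of all small non-coding RNAs, and Snord55 at 1.66-fold was no longer called. By median-ratio and by TMM scaling 4 members (7.55%) were higher and 1 was lower, against 10.2% and 10.4% higher and 8.45% and 8.3% lower. The median fold of the members was 0.998, with a range from 0.404 to 2.25, against a median of 0.867 for all small non-coding RNAs. The medians were 0.944 for 17 H/ACA box snoRNAs, 1.16 for 400 miRNA hairpins and 0.660 for 396 snRNA features. The members nearest to the limits without reaching them were Snord47 at 1.99-fold and Snord107 at 0.553-fold. The difference between the members and the other classes was not tested.

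Among the 19 snoRNAs of at least 10 RPM, Snord55 had the largest fold. Snord55, a guide of rRNA methylation, had 590 reads (31.3 RPM) in DMSO and 1486 reads (70.5 RPM) in AICAR. This was 2.25-fold (2.05 to 2.48). Snord49a had 842 reads (44.6 RPM) and 1711 reads (81.1 RPM), 1.82-fold (1.67 to 1.98). Snord118, which is needed for the maturation of the rRNAs of the large ribosomal subunit, had 1230 reads (65.2 RPM) and 1845 reads (87.5 RPM), 1.34-fold (1.25 to 1.44). Snord93 had 12.7 and 17.0 RPM, 1.34-fold (1.13 to 1.59). Snord45c had 39.2 and 48.9 RPM, 1.25-fold (1.13 to 1.37). Thus all 5 had intervals above 1 for counting error. Under the miRNA denominator Snord118, Snord93 and Snord45c lay on the other side of 1, at 0.987, 0.986 and 0.918, whereas Snord55 stayed at 1.66 and Snord49a at 1.34.

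At the other end was Snord17, with 589 reads (31.2 RPM) in DMSO and 266 reads (12.6 RPM) in AICAR, 0.404-fold (0.348 to 0.468). Snord2 had 1141 reads (60.5 RPM) and 729 reads (34.6 RPM), 0.572-fold (0.520 to 0.628). Snord19 had 11.3 and 7.44 RPM, 0.656-fold (0.531 to 0.810). Snord83b, in an intron of Rpl3, had 11.9 and 8.68 RPM, 0.731-fold (0.598 to 0.893), and Snord96a had 13.5 and 10.5 RPM, 0.782-fold (0.650 to 0.940). These 5 stayed below 1 under each of the 3 other denominators, with Snord17 between 0.297 and 0.461. In all, 7 of the 19 genes kept their direction under each denominator, and the other 12, with Snord14c and Snord14d both counted, did not. Each denominator multiplies every fold by the same factor (0.735, 1.12 and 1.14), so keeping the direction follows from the size of the fold alone. It is not a separate check of these genes. Between these ends, Snord69 was 1.09-fold, Snord22 0.998-fold, Snord82 0.912-fold and Snord57 0.912-fold.

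**Figure D2:**
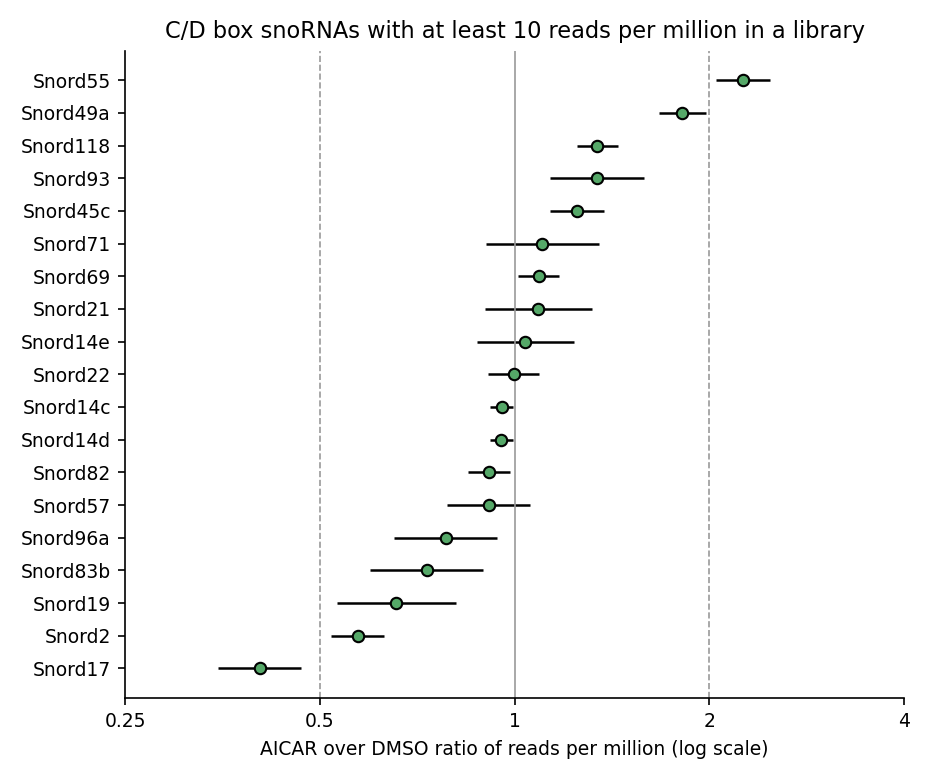
AICAR over DMSO ratio of RPM (log x axis) for the 19 snoRNAs that reached 10 RPM, ordered by ratio. Bars are 95% exact intervals for counting error, and dashed lines mark 0.5 and 2: Snord55 at 2.25 and Snord17 at 0.404 lie beyond them.

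Fragments were not spread over the snoRNAs but began mostly at the annotated 5′ end. In the DMSO library 60.4% of C/D box reads (59.7% to 61.2%) started in the first 5 nt, and in AICAR 64.1% (63.4% to 64.7%). Reads that ended in the last 5 nt made up 11.2% and 10.3%. The midpoint of the tag lay 5′ of the middle of the snoRNA for 78.3% and 83.2% of reads. Without the Snord14 copies the share starting in the first 5 nt was 45.3% and 52.1%, so it was higher in AICAR with and without them. H/ACA box reads had another layout, with 17.1% and 14.7% starting in the first 5 nt and 35.4% and 61.2% ending in the last 5 nt. Reads of a gene share a source, and the difference between the classes was not tested.

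The starts also lay at a narrow distance from box C. Box C was searched in sense as TGATGA and box D as CTGA. The box C letters began in the first 20 nt of 70 of the 98 Snord genes (71.4%) and of 0 of the 42 Snora genes, and CTGA lay in the last 20 nt of 98.0% and 11.9%. Copies were counted singly here, so the 17 Snord116 copies, most of which share their tags, weigh on these shares. Of the reads of genes that hold TGATGA, 87.7% in DMSO and 90.2% in AICAR started 2 to 7 nt before it. Of the 19 genes at 10 RPM, 13 held TGATGA, and in 12 of them the most frequent start lay 5 or 6 nt before it in both libraries. This held for Snord69, whose fragments began at position 7, and for Snord118, whose fragments began at position 48 of 135, where box C starts at position 53. The exception was Snord17. CTGA of box D was within 11.4% and 9.99% of C/D box reads. The motif matches are descriptions of the sequence alone.

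**Figure D3:**
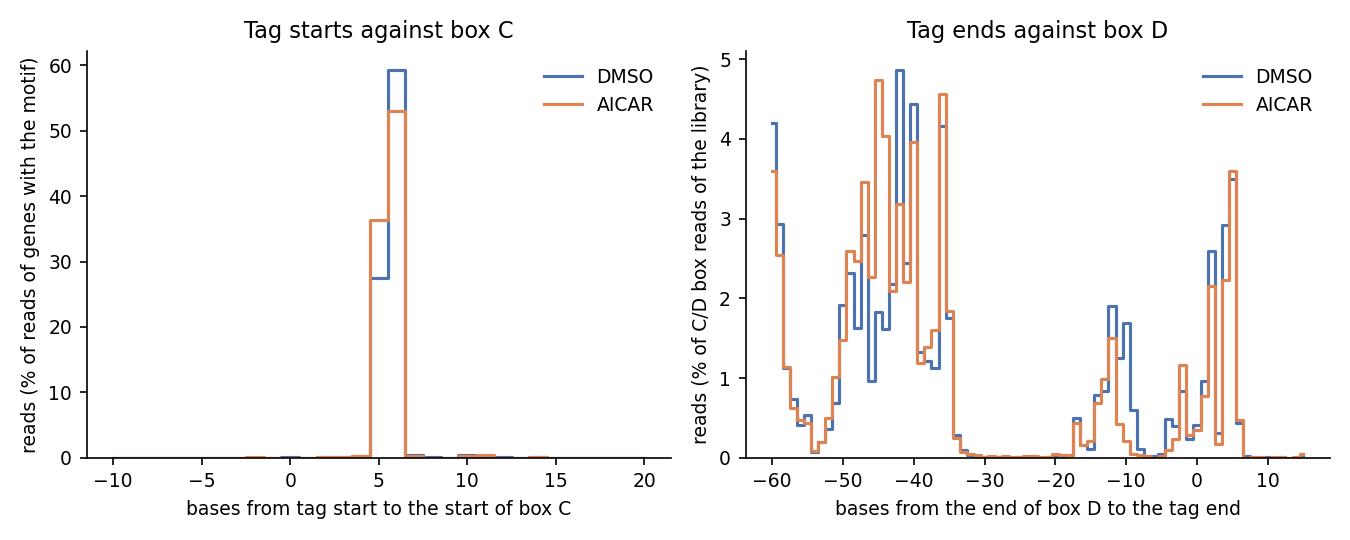
Left, bases from the start of a tag to TGATGA (box C), as a percentage of the reads of genes with that motif; right, bases from the last CTGA (box D) to the end of a tag, as a percentage of C/D box reads, with the x axis starting at −60. In both libraries the starts stand at 5 and 6 nt before box C, while the ends are spread.

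Tag lengths differed from those of the libraries as a whole. C/D box reads of 18 to 20 nt made up 25.3% in DMSO and 22.95% in AICAR, against 21.3% and 16.3% of all clean reads. Most of these short reads came from the Snord14 copies, and without them the shares were 12.4% and 10.5%. For Snord14d, 61.3% and 62.5% of reads were under 21 nt, whereas for Snord69 the shares were 0.230% and 0.251%. Reads of 25 to 30 nt made up 34.6% and 37.5%. The mean tag length of the 19 genes ranged from 20.2 nt for Snord14d and Snord14c to 27.5 nt for Snord57. Between libraries it differed by a median of 0.0234 nt, was longer in AICAR for 11 genes and shorter for 8. The largest differences were −1.41 nt for Snord17 and −1.12 nt for Snord2.

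**Figure D4:**
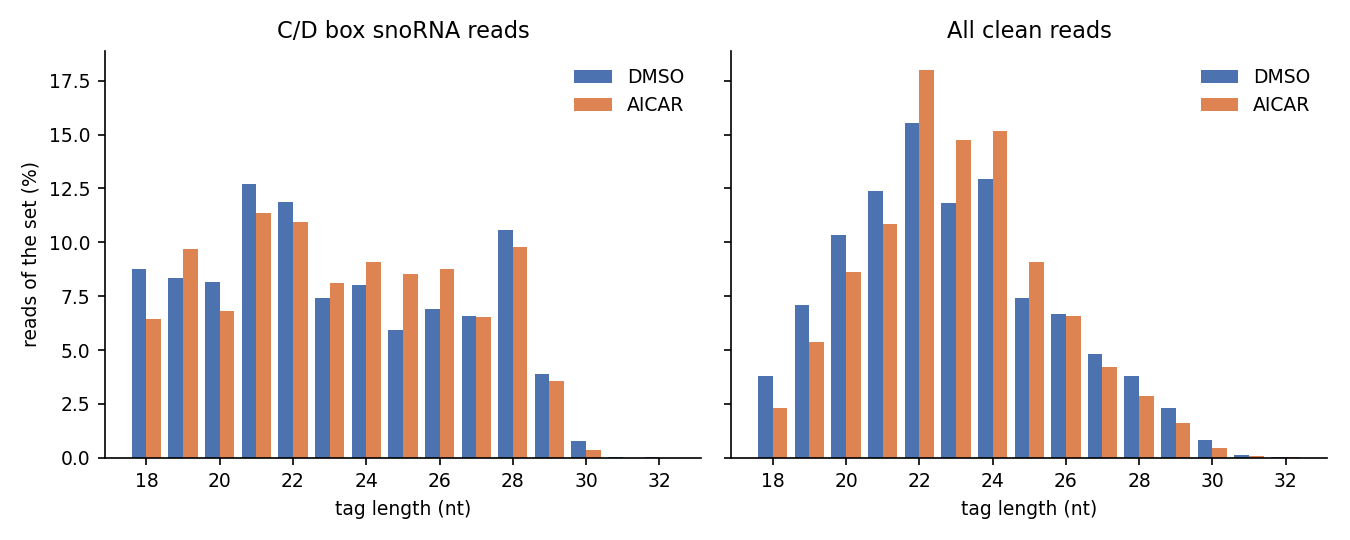
Percentage of reads by tag length for C/D box snoRNA reads (left) and for all clean reads (right), in the DMSO and AICAR libraries. All clean reads stand highest at 22 nt, whereas C/D box reads stand highest at 21 nt and rise again at 28 nt.

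Start positions were shared between libraries more often than whole tags, for which the end must match as well. Of the 19 genes, 18 had the same most frequent start in both libraries, and 9 had the same most-read tag. These counts therefore do not compare starts with ends. In the DMSO library 15 genes, and in AICAR 16, had more than 50% of their reads 5′ of the middle. The end positions and stretches named next were chosen after their values were seen.

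In Snord49a the higher level was found on tags with 4 neighbouring ends. The 4 tags are shown with TGATGA in capitals.
Snord49a 1 to 23: tgctgTGATGAgatgactaagta
Snord49a 1 to 24: tgctgTGATGAgatgactaagtag
Snord49a 1 to 25: tgctgTGATGAgatgactaagtagg
Snord49a 1 to 26: tgctgTGATGAgatgactaagtagga
They had 85, 64, 91 and 64 reads in DMSO and 229, 283, 417 and 274 reads in AICAR. All Snord49a reads that ended at positions 23 to 26 numbered 304 and 1205, 3.55-fold (3.12 to 4.04), while those with other ends numbered 538 and 506, 0.841-fold (0.744 to 0.952). Reads ending at position 21 were 150 and 84, and reads ending at position 28 were 146 and 84. The share of Snord49a reads with ends at 23 to 26 was therefore 36.1% (32.9% to 39.4%) in DMSO and 70.4% (68.2% to 72.5%) in AICAR. No denominator alters this comparison, but the libraries also differed in tag length. Of all clean reads, tags of 23, 24 and 25 nt were 11.8%, 12.9% and 7.40% in DMSO and 14.7%, 15.2% and 9.09% in AICAR. Tags of 26 nt were 6.69% and 6.59%, those of 21 nt 12.4% and 10.9%, and those of 28 nt 3.81% and 2.86%. The part of this in the ends of Snord49a and the genes below was not tested.

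Snord55 showed a like split. Its reads began mainly at position 2, with 514 reads in DMSO and 1388 in AICAR. Over all starts, those ending at 27 numbered 114 and 457, those ending at 28 numbered 131 and 469, and those ending at 29 numbered 176 and 238. Reads of Snord55 that ended at position 28 or before were 2.88-fold in AICAR (385 and 1240 reads), and those that ended at 29 or later were 1.07-fold (205 and 246 reads, 0.888 to 1.30). The share with ends at 28 or before was 65.3% in DMSO and 83.4% in AICAR.

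The Snord2 fragments lay in the middle of the snoRNA. TGATGA does not occur in Snord2, and its reads started mainly at positions 27 and 28, with 378 and 622 reads in DMSO and 166 and 472 in AICAR. The tags below hold CTGA more than once, and the last copy in the tag is in capitals. These are inner copies and not box D.
Snord2 28 to 50: gggactgacCTGAaatgaagaga
Snord2 28 to 51: gggactgacCTGAaatgaagagaa
Snord2 28 to 52: gggactgacCTGAaatgaagagaat
The tag ending at 50 had 82 reads in DMSO and 127 in AICAR, the tag ending at 51 had 205 and 202, and the tag ending at 52 had 134 and 66. Over all starts, Snord2 reads ending at 53 numbered 289 and 31, 0.0960-fold (0.0640 to 0.139), and those ending at 54 numbered 99 and 4. Reads ending at 52 or later were 0.237-fold (0.199 to 0.280), those ending at 51 were 0.841-fold, and those ending at 50 or before were 1.35-fold (1.11 to 1.65). The lower level of Snord2 was thus found mainly on the ends from 52 on.

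Snord17 gave fragments from separate places in its 238 nt. The tags shown are the most-read of the inner and of the 3′ stretch, with CTGA of box D in capitals.
Snord17 69 to 90: ctgttctgggagcttggggctg
Snord17 209 to 236: caccaagatgagtggtgcaaatCTGAtc
Snord17 209 to 230: caccaagatgagtggtgcaaat
The inner tag had 70 reads in DMSO and 83 in AICAR. The tag from 209 to 236 had 123 and 11 reads, and that from 209 to 230 had 74 and 13. All Snord17 reads that started at 200 or later numbered 397 and 94, 0.212-fold (0.167 to 0.266), while those that started at 60 to 75 numbered 162 and 151, 0.834-fold (0.664 to 1.05). The 3′ stretch held 67.4% of Snord17 reads in DMSO (63.5% to 71.1%) and 35.3% in AICAR (29.8% to 41.3%). The most frequent start moved from position 209 to position 69, which made Snord17 the 1 gene of the 19 where it differed.

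Snord118 gave reads from 2 stretches as well. Reads starting at positions 40 to 55 numbered 1137 and 1579, 1.24-fold (1.15 to 1.34), and reads 3′ of the middle numbered 81 and 248, 2.74-fold (2.12 to 3.57). Within the first stretch, reads that ended at 70 were 0.603-fold (267 and 180) and reads that ended at 72 were 1.87-fold (187 and 390). Snord22 was the reverse in layout, with 902 of 905 reads in DMSO and 1003 of 1009 in AICAR from its 3′ side, most often starting at position 105. Snord21, in an intron of Rpl5, gave fragments from both sides of its middle, with 93 and 110 reads in DMSO and 112 and 135 in AICAR. Snord60 was the other gene with unequal sides that was singled out after its values were seen: its 5′ side had 36 and 114 reads, 2.83-fold (1.93 to 4.24), and its 3′ side 32 and 23.

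**Figure D5:**
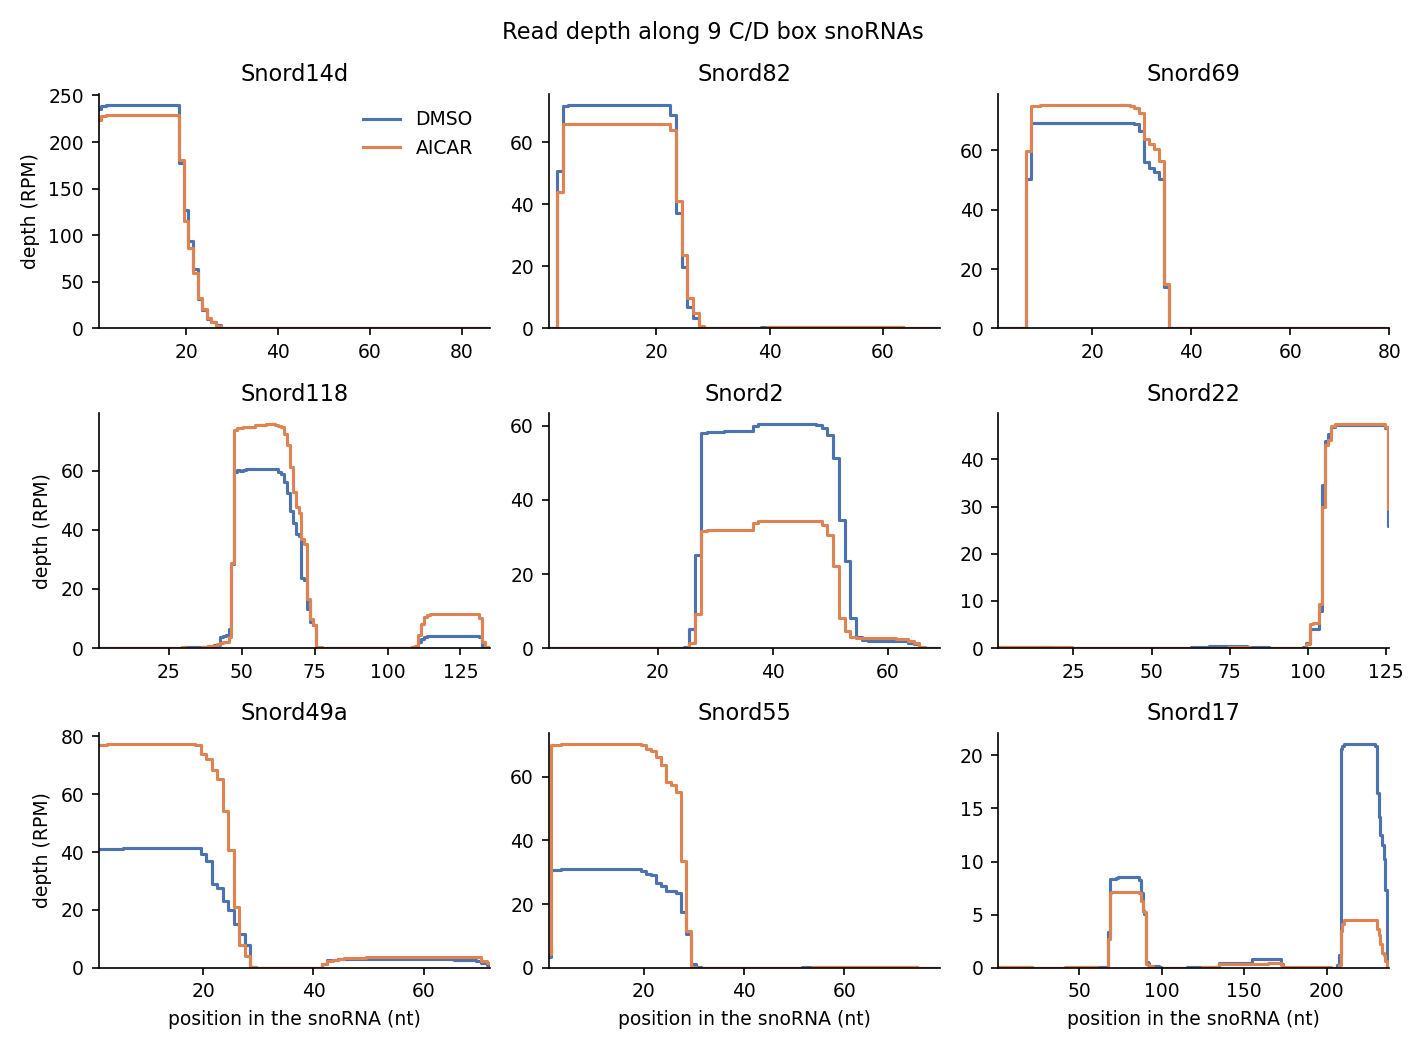
Read depth (RPM, y axis) at each position (nt, x axis) of 9 C/D box snoRNAs in the DMSO and AICAR libraries, with its own y scale in each panel. Depth lies at the 5′ end for Snord14d, Snord82, Snord69, Snord49a and Snord55, inside Snord118 and Snord2, and at the 3′ end of Snord22, and in Snord17 the 3′ stretch is 0.212-fold and the inner stretch 0.834-fold in AICAR.

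By host gene, the folds of snoRNAs of the same transcript differed in some hosts and were close in others. Of the 11 hosts reported here with at least 2 different snoRNAs at 1 RPM, 8 had members whose counting intervals all overlapped, such as Gm38393 (Snord107 at 0.553-fold and Snord64 at 0.588-fold), Rpl23a (Snord42b at 0.998-fold and Snord42a at 1.13-fold) and Snhg5 (Snord50b at 0.856-fold and Snord50a at 0.895-fold). Overlap did not always mean close folds. In 2410002F23Rik, Snord88c was 0.857-fold and Snord88a 1.49-fold, on 47 and 48 reads over both libraries. In Rps3 the folds were 1.04 and 1.49, and in Rpl13a 0.582 and 0.851, with overlapping intervals. Members that share reads cannot give separate folds. Of the 20 and 20 reads of Snord50a only 3 and 0 matched no other Snord gene. For Snord50b these were 6 and 2 of 23 and 22 reads. Snord1b and Snord1c of 1810032O08Rik, also among the 8, shared reads too, with 28 of 66 and 17 of 55 DMSO reads matching 1 gene alone. In the other 3 hosts the intervals did not overlap. In 2410006H16Rik, Snord49a was 1.82-fold and Snord49b 0.768-fold (106 and 91 reads, 0.574 to 1.03), while Snord65 had 15 and 12 reads. In Gnl3, Snord69 was 1.09-fold and Snord19 0.656-fold. In Gas5, Snord47 was 1.99-fold (1.39 to 2.89) and Snord78 1.00-fold (0.738 to 1.36).

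Gas5 and Rpl13a, both of the class of growth-regulated transcripts with a 5′ terminal oligopyrimidine tract, are hosts of several snoRNAs each. The 4 Gas5 snoRNAs that the annotation names (Snord47, Snord78 and 2 Snord80 entries) had 134 and 210 reads, 1.40-fold (1.12 to 1.75). Snord47 had 45 and 100 reads and Snord78 had 83 and 93. The 4 Rpl13a snoRNAs (Snord32a, Snord33, Snord34 and Snord35a) had 113 and 97 reads, 0.768-fold (0.579 to 1.02). Snhg1 was represented by Snord22 alone. Only 5 members of these 3 lists reached 1 RPM, and 0 of them were beyond 2-fold, against 6.89% higher and 10.1% lower of all small non-coding RNAs. With so few members this count does not set the lists apart. The 7 snoRNAs of pre-rRNA processing (the Snord14 copies, Snord13, Snord22 and Snord118) all reached 1 RPM, with 378 and 391 RPM in all and a fold of 1.03 (1.00 to 1.07). Snord13 had 9.49 and 9.86 RPM and Snord14e 13.2 and 13.7 RPM, and Snord14a, in another host, had 27 and 51 reads, 1.69-fold (1.04 to 2.80). The Snord14c and Snord14d tags held most of the reads of the list (0.955-fold and 0.954-fold), while Snord118 was 1.34-fold. In this list too, 0 of 7 were beyond 2-fold, a count that the same background shares do not set apart.

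Reads of the imprinted snoRNA genes were few. The 17 Snord116 copies lie in the non-coding host Snhg14 on chromosome 7, in the region whose human counterpart is lost in Prader-Willi syndrome, and are known for high levels in neurons. Together they had 10 reads (0.530 RPM) in DMSO and 19 reads (0.901 RPM) in AICAR, on 16 tags that most copies share, 1.70-fold with an interval from 0.752 to 4.09. The most-read tag of the copy Snord116l1 is shown, since it began 6 nt before TGATGA like the tags of the abundant snoRNAs.
Snord116l1 2 to 21: gatctaTGATGAttcccagt
It had 2 reads in DMSO and 5 in AICAR, and with the interval of all copies spanning 1 a difference was not detectable at this depth. The annotation gave no gene the symbol Snord113, Snord114 or Snord115, and these were not analysed here by name. Of 13 snoRNA entries with other symbols in Rian, the host on chromosome 12 of the imprinted region that holds Meg3, 5 had reads, 145 and 142 in all (0.876-fold, 0.690 to 1.11). Among them Gm26922 had 40 and 58 reads, DQ267100 had 54 and 38, and AF357425 had 15 and 1. In Snhg14, 191 entries with other symbols had 11 and 22 reads, and 16 of their 19 tags were shared with the Snord116 copies. Snord64 and Snord107, which lie beside Snhg14 in Gm38393, had 35 and 34 reads in DMSO and 23 and 21 in AICAR, together 0.571-fold (0.382 to 0.845).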

How the data were processed

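Small RNA of J1 ES cells was sequenced from 1 DMSO and 1 AICAR sample. The control sample is titled J1_U and labelled DMSO, and it was used as DMSO. The authors selected RNA of 18 to 30 nt, removed low-quality and contaminant reads and deposited read counts for each distinct tag, without alignment or normalization. The labels name the genome build mm9, but the deposited counts hold no coordinates. Tags were matched to GENCODE vM21 transcripts (GRCm38), which supply all coordinates and snoRNA sequences.

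A tag was counted in full for each Snord gene it matched and once in totals. The 17 tags (14 and 26 reads) that also matched a miRNA hairpin were left out, and antisense tags had 1 read in each library. Of the member reads, 62.6% and 57.1% also matched another gene, and 27 and 24 reads matched a gene that is neither host nor snoRNA. Matches to host transcripts and to other snoRNA entries were not counted apart. A member was called at a fold of at least 2 or at most 0.5 with at least 1 RPM in a library. Named were the 12 genes with the most reads, the 5 largest and 5 smallest folds at 10 RPM or more, the Snord116 copies and list members at 10 RPM; other names were added after their values were seen. Alternatives were other denominators, tag lengths, filters, windows and matching rules. Some host genes and sequences are not reported here. The members and lists were chosen with earlier results of these data known. The steps were tested on simulated data. Python 3.11.15, numpy 2.4.6, pandas 2.3.3, scipy 1.17.1, matplotlib 3.10.9, R 4.3.3 and edgeR 4.0.16 (TMM factors only) were used.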

Additional observations from a re-analysis of the deposited data

How the results depend on the processing

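No replicate spread could be estimated, and intervals cover counting error only. No paired analysis was possible because each condition has 1 library. The total of 1.06-fold became 1.09 with tags of at least 21 nt, 1.21 without tags that match any other gene, 1.10 with tags of 1 Snord gene, 1.09 without Snord14 tags, 0.778 per miRNA hairpin read, 1.18 by median-ratio and 1.21 by TMM scaling. Leaving out Snord14 tags, or tags of genes other than hosts and snoRNA entries, was chosen after seeing the data. The count of members at least 2-fold higher (1) became 3 with tags of at least 21 nt, 3 with 1 mismatch, 0 per miRNA hairpin read, 4 by median-ratio, 4 by TMM and 10 with no filter on level. The count at most 0.5-fold (1) became 2 with tags of at least 21 nt, 3 with tags read in both libraries, 8 per miRNA hairpin read and 5 with no filter. The shares of all small non-coding RNAs are given above for the denominators alone. Under the other settings the number of members tested can differ too, so these counts cannot be called many or few. Per miRNA hairpin read the host sums became 1.03 for Gas5, 0.734 for Snhg1 and 0.565 for Rpl13a. By median-ratio and TMM scaling Snhg1 became 1.11 and 1.14. Without tags that match any other gene there were no reads for Gas5, Snhg1 and Snord116. Snord116 stayed within its counting interval under the 6 alternatives that gave a value.

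Shares are given for DMSO and then AICAR. Reads starting in the first 5 nt (60.4% and 64.1%) became 53.5% and 59.4% with tags of at least 21 nt, 61.8% and 65.3% with tags read in both libraries, 54.9% and 62.3% without tags that match any other gene, 45.3% and 52.1% without Snord14 tags, 38.0% and 38.9% with a window of 1 nt, 69.7% and 73.6% with 10 nt, and 97.1% and 96.8% as the median over genes. Reads ending in the last 5 nt (11.2% and 10.3%) became 12.6% and 11.0% with tags of at least 21 nt, 15.4% and 13.7% without Snord14 tags, 3.76% and 4.06% with 1 nt, 13.2% and 11.6% with 10 nt, and 0.394% and 0.215% as the median over genes. In AICAR they were also 8.49% without tags that match any other gene and 11.2% with 1 mismatch. Reads under 21 nt (25.3% and 22.95%) became 12.4% and 10.5% without Snord14 tags, 14.3% and 14.3% as the median over genes, and 57.3% and 53.4% when counted under 24 nt.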

Other observations

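Counting intervals narrowed with reads. Of the 14 members with more than 500 reads in both libraries together, 11 had a counting interval beyond 1, against 4 of 18 members with 100 reads or fewer. Snord14c and Snord14d, which share nearly all reads, are both among the 14. The share of all small non-coding RNAs at these depths is not given, so the counts do not set C/D box snoRNAs apart. Snord92 had 12 reads in DMSO and 2 in AICAR, 0.149-fold (0.0162 to 0.670), and Snord58b had 5 and 19, 3.40-fold (1.23 to 11.7); both stayed under 1 RPM and were singled out after their values were seen. At moderate depth Snord98 had 63 and 105 reads, 1.49-fold (1.08 to 2.07), and Snord15b, in an intron of Rps3, had 62 and 103 reads, 1.49-fold (1.07 to 2.07). The partner of Snord15b in the same host, Snord15a, had 133 and 154 reads, 1.04-fold. Snord14e had 104 reads ending at position 27 in DMSO and 57 in AICAR, 0.490-fold (0.349 to 0.684), beside a gene total of 1.04-fold. Snord21 had 40 and 9 reads ending at position 30, and 17 and 42 ending at position 28.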
